A study of Rattus norvegicus with 11 samples.

Results

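Ionotropic glutamate receptors were examined in rat trigeminal ganglia (TRG) 7 days after complete Freund's adjuvant (CFA) had inflamed one side of the face. The members were the array probes whose RefSeq accession belongs to 10 subunit genes, namely the AMPA receptor genes Gria1, Gria2, Gria3 and Gria4, the kainate receptor genes Grik1, Grik2 and Grik5, and the NMDA receptor genes Grin1, Grin2a and Grin2b. This gave 8 genes, of 13903 genes that the array's probes could be named for, and 14 probes, of 24684 probes in all. The AMPA genes contributed 7 probes, the kainate genes 5 and the NMDA genes 2. Gria1 and Grin2a matched no probe by accession and were not analysed here.

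All ganglia came from male Wistar rats that had received 50 µl of CFA (killed mycobacteria in paraffin oil, 1 mg/ml) under the skin of one whisker pad, during ketamine and xylazine anaesthesia. The CFA group held the ganglion on the injected side of 6 rats (numbers 1, 2, 3, 5, 6 and 8), and the contralateral group held the ganglion on the other side of 5 of them (rats 1, 2, 3, 5 and 6). Contralateral ganglia are therefore controls within animals that carried the inflammation, and no ganglion of an uninjected rat is among these arrays. Whole ganglia were hybridised on single-colour Agilent arrays, 1 array a ganglion.

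Ionotropic glutamate receptors are ion channels that open when glutamate binds, and they carry most fast excitatory signalling between neurons. AMPA receptors give the rapid current, and GRIA2 makes them poorly permeable to calcium once its transcript has been edited. Kainate receptors combine channel-forming low-affinity subunits, encoded by Grik1 and Grik2, with a high-affinity subunit such as that encoded by Grik5. NMDA receptors need the obligatory GRIN1 subunit, which binds glycine or D-serine, together with a GRIN2 subunit, which binds glutamate. Primary sensory neurons are known to place such receptors on their central terminals, peripheral endings and cell bodies, and Grik1 is well known from small-diameter sensory neurons.

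Values are log2 signals after quantile normalisation, in which 1 unit is a 2-fold change, and they can be compared between arrays for a given probe but not between probes. Each member probe was a single spot on the array. The arrays lay on 5 slides, taken as arrays that share a scan time. Slide 2 held the CFA array of rat 1 with the contralateral arrays of rats 5 and 6, slides 1 and 3 held the contralateral arrays of rats 3, 1 and 2, and slides 4 and 5 held the other CFA arrays, so that only slide 2 carried both groups. The median processed signal lay between 74.6 and 117 on the 6 CFA arrays and between 87.9 and 96.4 on the 5 contralateral arrays, and the number of arrays limits the precision.

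No member passed the study's threshold, an unadjusted p of 0.05 or less with an absolute fold change over 2, in limma's moderated test of CFA against contralateral ganglia (0 of 14 probes), against 2.02% of all 24684 probes (498 probes, with 1.15% of all probes higher and 0.863% lower in CFA ganglia). None reached an unadjusted p of 0.05 either, against 10.8% of all probes, and no probe of the array reached an adjusted p of 0.05. All 14 probes were well above background on all 11 arrays, as were 67.9% of all probes, so the receptor transcripts were measured on both sides. The log2 fold changes (CFA minus contralateral) ran between -0.25 for Grin1 and 0.27 for Grik2, with a median of -0.06 over the members and -0.04 over all probes. The values of the groups overlapped for every member, while 1.20% of all probes had groups that did not overlap.

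A p that misses the threshold does not show that the sides were alike, and the 95% intervals give the range of differences that the spread between ganglia allows. For 12 of the 14 probes the interval lay wholly between -1 and 1, that is, inside a 2-fold change in either direction, and this was so for 77.6% of all probes. The exceptions were Grik2 and Grin2b. These intervals take no account of slide, scan day or rat. Blocking on slide left 11 of the 14 inside, against 63.6% of all probes, the exceptions being Grik2, Grin2b and Grin1. A scan day block also left 11 inside, against 55.3% of all probes, the exceptions being Grik2, Grin2b and Gria2 NM_001083811. Scan day 1 held every contralateral array and, of the CFA arrays, only that of rat 1. The other CFA arrays were scanned on days 2 and 3. The scan day block therefore sets 1 CFA ganglion against the contralateral ones, so group and scan day can hardly be told apart. Slide 2 likewise holds 1 CFA array. Pairing by rat left 13 inside, all but Grik2, against 75.1% of all probes. Without a block, the narrowest interval was that of the Grik1 probe for NM_001111117, between -0.27 and 0.15. The widest was that of Grin2b, between -1.20 and 1.12. In whole ganglia, fewer cells of a type and less RNA per cell cannot be told apart.

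**Figure D1:**
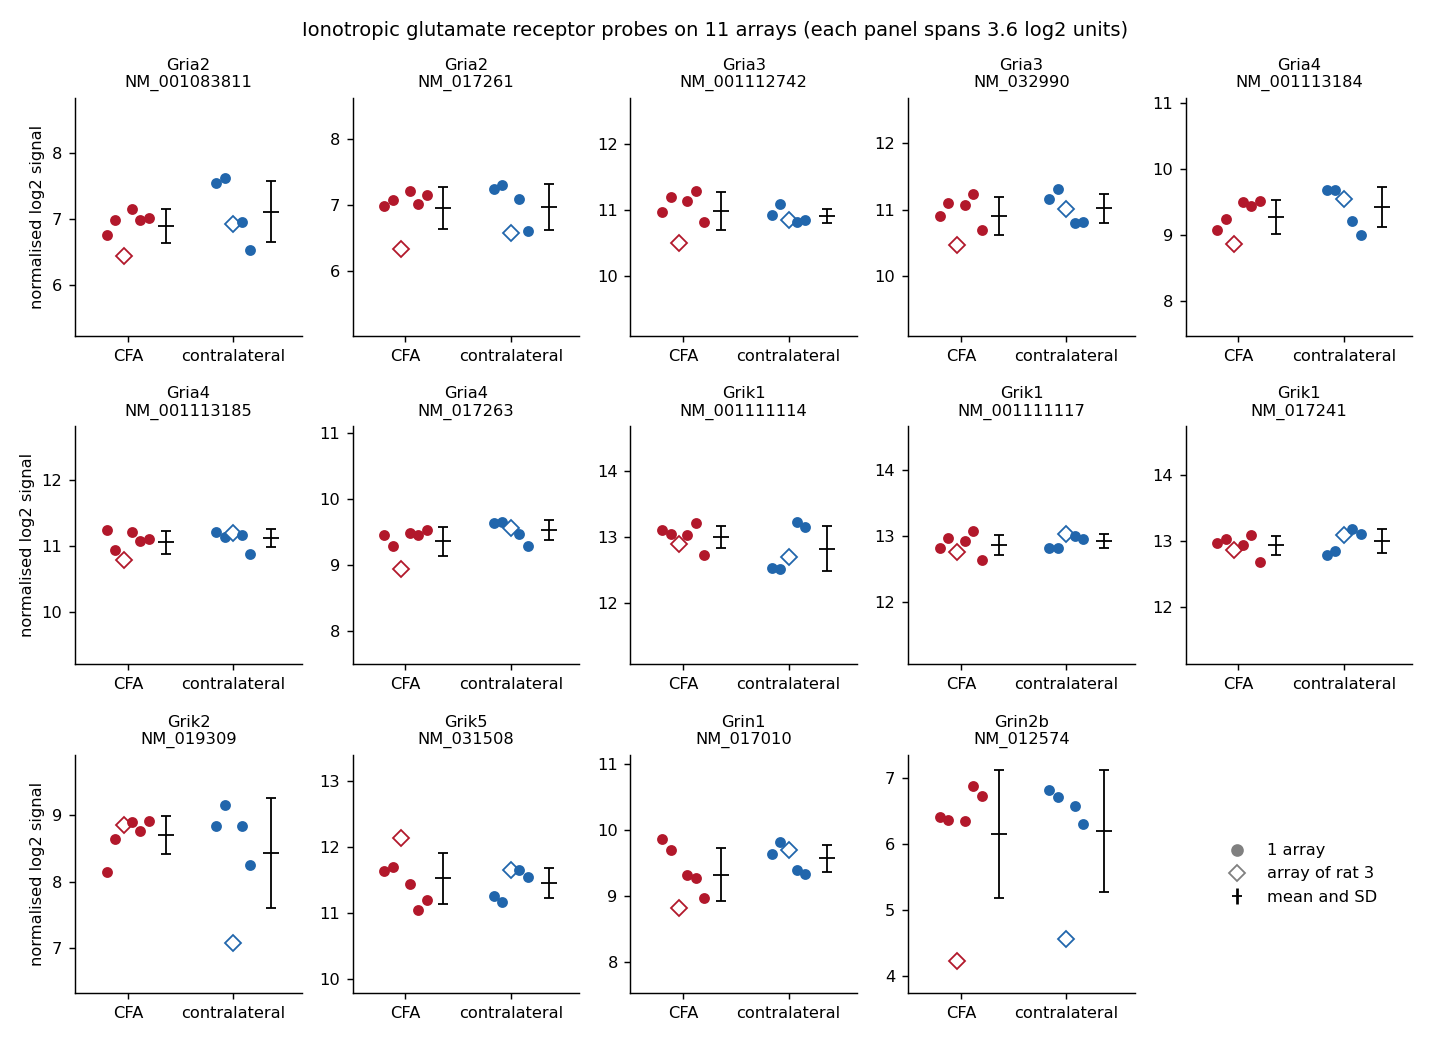
Normalised log2 signal of the 14 receptor probes on the 6 CFA arrays (left, red) and the 5 contralateral arrays (right, blue), with open diamonds for rat 3 and bars for the mean and SD of each group. The groups overlap in every panel, and both Grin2b values of rat 3 lie below those of all other rats.

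**Figure D2:**
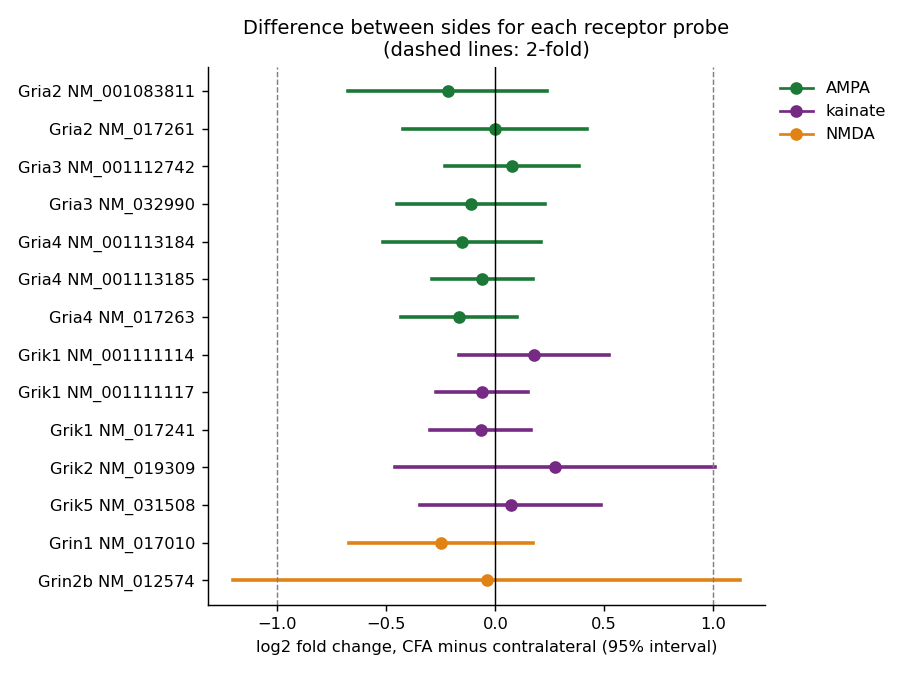
Log2 fold change (CFA minus contralateral) of each receptor probe with its 95% interval from limma, coloured by receptor class, with dashed lines at a 2-fold difference. All 14 intervals include 0, and those of Grik2 and Grin2b reach past 1 or -1.

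Gria2, whose subunit sets the calcium permeability of AMPA receptors, was read by probes for NM_001083811 and NM_017261. The NM_001083811 probe had a lowest, median and highest value of 6.45, 6.99 and 7.16 in CFA ganglia, against 7.55, 7.62, 6.92, 6.96 and 6.53 in the contralateral ganglia of rats 1, 2, 3, 5 and 6. The contralateral values of rats 1 and 2 lay above every CFA value, and those of the other rats lay among them. Its log2 fold change was -0.22 (SE 0.21; 95% interval -0.67 to 0.24; limma p = 0.31; exact permutation p = 0.34, two-sided). The NM_017261 probe had 6.34, 7.04 and 7.21 in CFA ganglia, against 7.24, 7.30, 6.58, 7.09 and 6.61 in contralateral ganglia. Here the group means were 6.96 ± 0.32 in CFA ganglia and 6.96 ± 0.35 in contralateral ganglia (SD, n = 6 and 5), and the interval of the difference ran between -0.42 and 0.42.

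Gria3, another pore-forming AMPA subunit, was read by probes for NM_001112742 and NM_032990, whose differences had opposite signs. The NM_001112742 probe had 10.51, 11.05 and 11.29 as lowest, median and highest CFA values, against 10.93, 11.09, 10.86, 10.83 and 10.85 in contralateral ganglia. The contralateral values were closer together, and CFA values lay both below and above all of them. Its log2 fold change was 0.08 (SE 0.14; 95% interval -0.23 to 0.38). For the NM_032990 probe it was -0.11 (SE 0.15; 95% interval -0.45 to 0.23), with 10.46, 10.99 and 11.23 in CFA ganglia, against 11.16, 11.31, 11.002, 10.80 and 10.82 in contralateral ganglia.

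Gria4, the AMPA subunit known for fast channel kinetics, had 3 probes, all slightly lower in mean in CFA ganglia. The NM_017263 probe had 8.94, 9.45 and 9.53 as lowest, median and highest CFA values, against 9.64, 9.65, 9.57, 9.47 and 9.29 in contralateral ganglia, and the contralateral values of rats 1, 2 and 3 exceeded every CFA value. Its log2 fold change of -0.17 (SE 0.12; 95% interval -0.43 to 0.10) had the smallest p of all members (limma p = 0.20, adjusted p = 0.60; exact permutation p = 0.18, where the 462 splits of the arrays allow 0.00216 at best). The NM_001113184 probe gave -0.15 (SE 0.16) and the NM_001113185 probe -0.06 (SE 0.10). The intervals of both included 0.

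Grik1, the kainate subunit characteristic of small sensory neurons, was read by 3 probes, of which NM_017241 and NM_001111117 had similar values in both groups. The NM_017241 probe had 12.68, 12.96 and 13.09 as lowest, median and highest CFA values, against 12.79, 12.84, 13.09, 13.19 and 13.10 in contralateral ganglia. Its log2 fold change was -0.07 (SE 0.11; 95% interval -0.30 to 0.17; exact permutation p = 0.50). The NM_001111117 probe gave -0.06 (SE 0.09), the smallest SE among the members. The NM_001111114 probe went the other way, at 0.18 (SE 0.16; 95% interval -0.17 to 0.52). It had 12.73, 13.04 and 13.20 in CFA ganglia, against 12.53, 12.51, 12.70, 13.23 and 13.14 in contralateral ganglia. The contralateral values of rats 1, 2 and 3 lay below every CFA value, while those of rats 5 and 6 lay among the highest.

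Grik2, which encodes a kainate subunit that can form channels alone, had the largest positive difference of the members and the second widest interval. It had 8.14, 8.81 and 8.91 as lowest, median and highest CFA values, against 8.83, 9.17, 7.07, 8.84 and 8.25 in the contralateral ganglia of rats 1, 2, 3, 5 and 6. The contralateral value of rat 3 lay below all the others, and the CFA values were closer together (SD 0.29, n = 6, against 0.83, n = 5). The log2 fold change was 0.27 (SE 0.33; 95% interval -0.46 to 1.01; limma p = 0.43; exact permutation p = 0.56). This sign rested on 1 array, since the difference was -0.07 without the contralateral array of rat 3, and within slide 2 it was -0.40.

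Grik5, the high-affinity partner subunit of kainate receptors, had 11.06, 11.54 and 12.14 as lowest, median and highest CFA values, against 11.26, 11.17, 11.66, 11.66 and 11.55 in contralateral ganglia. The highest value of all was the CFA ganglion of rat 3. Its log2 fold change was 0.07 (SE 0.19; 95% interval -0.35 to 0.49; limma p = 0.72; exact permutation p = 0.75), and without that array it was -0.05.

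Grin1, the obligatory NMDA subunit, had the largest negative difference of the members. Its lowest, median and highest CFA values were 8.81, 9.30 and 9.85, against 9.64, 9.81, 9.69, 9.39 and 9.33 in contralateral ganglia. CFA values lay below all contralateral ones in 4 ganglia (rats 3, 5, 6 and 8) and above all of them in 1 (rat 1). The CFA group thus spanned the contralateral one. Some margins were very small, with rat 5 at 9.322 against a lowest contralateral value of 9.326. Rat 1 was at 9.854 against a highest contralateral value of 9.811. The log2 fold change was -0.25 (SE 0.19; 95% interval -0.67 to 0.17; limma p = 0.22; exact permutation p = 0.24). Within slide 2 the difference was 0.50, the CFA array of rat 1 against the contralateral arrays of rats 5 and 6.

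Grin2b encodes a glutamate-binding NMDA subunit known for slow channel closing. It had 4.23, 6.38 and 6.87 as lowest, median and highest CFA values, against 6.82, 6.72, 4.57, 6.58 and 6.30 in the contralateral ganglia of rats 1, 2, 3, 5 and 6. Apart from rat 3, CFA values lay between 6.36 and 6.87 and contralateral values between 6.30 and 6.82. The log2 fold change was -0.04 (SE 0.53; 95% interval -1.20 to 1.12; limma p = 0.94; exact permutation p = 0.89). It was 0.35 without the CFA array of rat 3 and -0.45 without the contralateral one, in both cases with rat 3 left in the other group.

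Rat 3 stood apart for Grin2b on both sides. Its CFA ganglion lay 2.13 log2 units below the next lowest CFA ganglion, and its contralateral ganglion 1.73 below the next lowest contralateral one. Before normalisation the processed signals were 19.4 in the CFA ganglion of rat 3, with 63.7 to 145 in the other CFA ganglia, and 23.6 in its contralateral ganglion, with 74.5 to 114 in the other contralateral ganglia. Both spots were well above background and neither carried an outlier mark. The ganglia were hybridised on different slides (slide 4 for the CFA side, slide 1 for the contralateral side) that were scanned on different days. A gap of at least 1 log2 unit below every other array of the group, on both sides of rat 3, was met by 5 of the 24684 probes, 3 of which were well above background on all arrays. The same count of low probes was 4 for rat 1, 2 for rat 2, 2 for rat 5 and 0 for rat 6. Probes as far above every other array of the group, on both sides, numbered 17 for rat 6. For rats 1, 2, 3 and 5 they numbered 2, 3, 2 and 4. By any gap at all, rat 3 was lowest in both groups for 5.38% of all probes, the most of the 5 rats (1.43% to 4.05% for the others). This comparison was chosen after the Grin2b values were seen.

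No other member shared that pattern to the same extent. The NM_017261 probe of Gria2 was lowest in rat 3 on both sides, by 0.65 log2 units among CFA ganglia but by only 0.04 among contralateral ganglia, a rank that 5.38% of all probes shared. Grin1, the partner of Grin2b in the channel, was lowest in the CFA ganglion of rat 3 (8.81), whereas its contralateral value of 9.69 was the second highest of its group. Grik5 was highest in the CFA ganglion of rat 3.

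Side differences were also taken within each of the 5 rats with both ganglia. No member had the same sign in all 5 rats, against 13.2% of all probes. Grin1 was lower on the CFA side in 4 of 5 rats, with a difference of -0.88 in rat 3, values of -0.11 to -0.06 in rats 2, 5 and 6, and 0.22 in rat 1. Grin2b was also lower on the CFA side in 4 of 5 rats, with -0.41, -0.36, -0.34 and -0.22 in rats 1, 2, 3 and 5, against 0.57 in rat 6. The Grin2b difference within rat 3 was therefore in the range of the other rats, although both of its levels were low. Grik2 differed by 1.79 in rat 3, more than any other member in any rat.

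The sign of the side difference followed the slide of the contralateral array for 6 of the 14 probes, against 22.3% of all probes. The 6 were both Gria2 probes, the NM_032990 probe of Gria3, the NM_001113184 and NM_017263 probes of Gria4, and Grik5. For Gria4 NM_001113184 the CFA side was lower in rats 1, 2 and 3 (-0.60, -0.43 and -0.68), whose contralateral arrays lay on slides 1 and 3, and higher in rats 5 and 6 (0.27 and 0.44), whose contralateral arrays lay on slide 2. Gria2 NM_001083811 ran the same way, with -0.78, -0.62 and -0.47 in rats 1, 2 and 3, and 0.20 and 0.46 in rats 5 and 6. Grik5 ran in the opposite direction, with 0.38, 0.53 and 0.48 in rats 1, 2 and 3, and -0.22 and -0.49 in rats 5 and 6. The CFA arrays of these sets of rats lay on different slides as well (2 and 4 against 5), so slide and animal cannot be told apart.

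**Figure D3:**
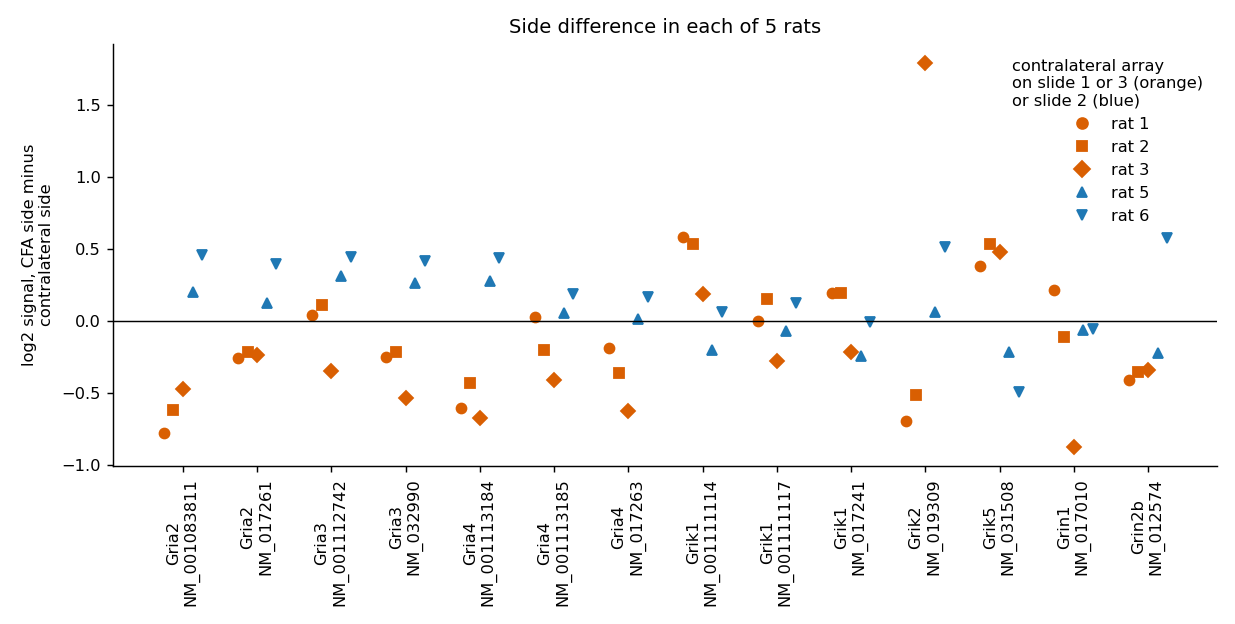
Difference in log2 signal, CFA side minus contralateral side, of each receptor probe in the 5 rats with both ganglia, coloured by the slide of the contralateral array. For both Gria2 probes, rats 1, 2 and 3 lie below 0 and rats 5 and 6 above it, and for Grik5 the order is turned round.

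Probes of the same gene were also compared. Each of the 4 genes with several probes was read more than once from the same labelled RNA. The probes may read different transcripts of the gene, and which exons they read was not analysed here. After each probe was centred on its own mean over the 11 arrays, Grik1 NM_001111117 and NM_017241 differed by -0.12 to 0.11 on single arrays. Grik1 NM_001111114 departed from both. Relative to NM_001111117 it was higher by 0.05 to 0.26 on the 6 CFA arrays and by 0.16 and 0.21 on the contralateral arrays of slide 2, and it was lower, at -0.36 to -0.32, on the contralateral arrays of slides 1 and 3. The difference between the fold changes of these probes was 0.24 log2 units, larger than either fold change itself.

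The same contralateral arrays set the probes of Gria2 and Gria3 apart. Gria2 NM_001083811 minus NM_017261 was -0.25 to 0.08 on the 6 CFA arrays, -0.16 and -0.12 on the contralateral arrays of slide 2, and 0.27 to 0.31 on those of slides 1 and 3. Gria3 NM_001112742 minus NM_032990 was 0.05 to 0.13 on the CFA arrays, 0.03 on both contralateral arrays of slide 2, and -0.22 to -0.14 on those of slides 1 and 3. Gria4 divided otherwise. Its NM_001113184 probe minus NM_017263 was -0.28 to -0.16 on slide 2, which held the CFA array of rat 1 as well. It was 0.015 to 0.10 on slides 4 and 5 and 0.067 to 0.135 on slides 1 and 3. NM_001113184 minus NM_001113185 was -0.41 to -0.13 on slide 2, overlapping slides 4 and 5 (-0.17 to 0.14). The log2 fold changes of the probes of one gene differed by -0.22 for Gria2 and by 0.19 for Gria3 (taken in the same order), and the part of the slide in this was not tested.

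**Figure D4:**
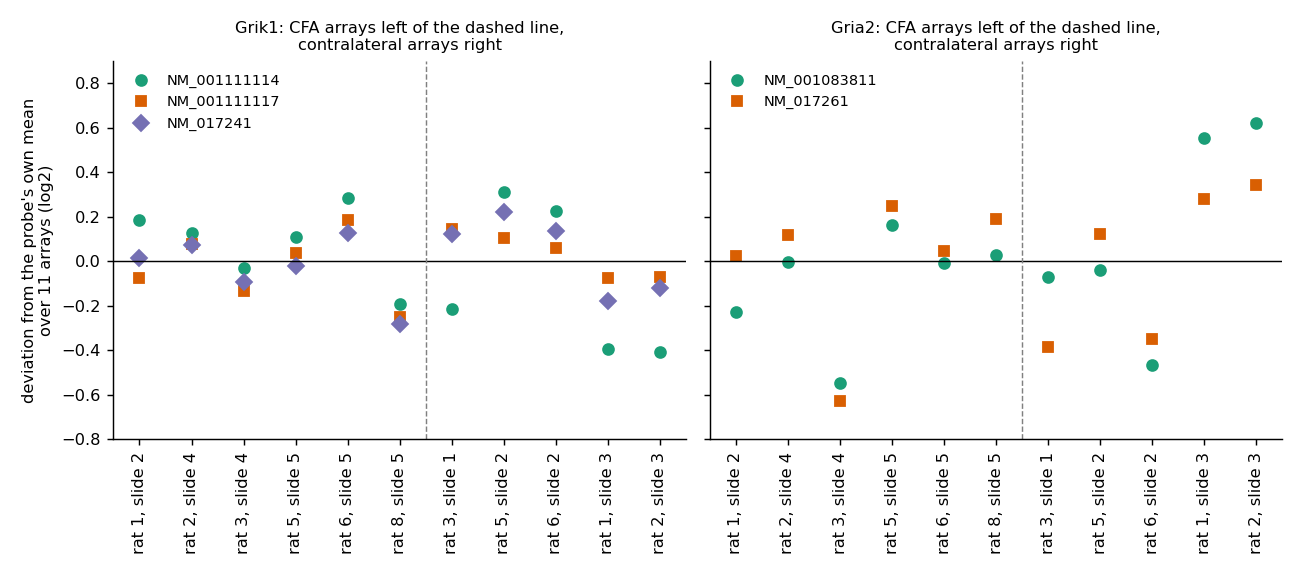
Deviation of each Grik1 probe (left panel) and each Gria2 probe (right panel) from its own mean over the 11 arrays, in log2 units, with CFA arrays left and contralateral arrays right of the dashed line. The NM_001111114 probe of Grik1 lies below the other Grik1 probes on the contralateral arrays of slides 1 and 3, and the NM_001083811 probe of Gria2 lies above the other Gria2 probe there.

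Genes that work with these receptors were taken from 6 lists (other receptor subunits, auxiliary subunits, synaptic scaffolds, metabotropic receptors, glutamate transport and synthesis, and RNA editing), of which 73 of 83 genes were matched to a probe. Of these, 2 rose past the study's threshold and 0 fell past it (2.74%, against 2.02% of all probes), and 8 of 73 had an unadjusted p of 0.05 or less, against 10.8% of all probes. Their median log2 fold change was 0.03, against -0.04 over all probes. The shares of called genes lay near those of the whole array.

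Olfm2, an olfactomedin found in native AMPA receptor complexes, was the 1 of 17 measured auxiliary subunits that passed. It had 4.13, 5.31 and 5.65 as lowest, median and highest CFA values, against 3.09, 4.76, 3.62, 4.02 and 4.57 in the contralateral ganglia of rats 1, 2, 3, 5 and 6. The CFA ganglion of rat 8 lay among the contralateral values, and the CFA side was higher in 5 of 5 rats. The log2 fold change was 1.17 (SE 0.35; 95% interval 0.39 to 1.95; limma p = 0.0070, adjusted p = 0.34; exact permutation p = 0.022). It was 1.27 within slide 2, where the fit with slide as a block did not pass the threshold, and it was under 2-fold without the contralateral array of rat 1 (0.94) and without both arrays of rat 3 (0.98). Without background subtraction it was 0.51 and with normexp background correction 0.34, both under 2-fold.

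Grm2, a metabotropic receptor that restrains glutamate release, was the 1 of 7 measured metabotropic receptors that passed. Its CFA values were close together, with 4.03, 4.31 and 4.42 as lowest, median and highest, against 2.04, 0.99, 3.14, 4.30 and 3.96 in contralateral ganglia. The contralateral arrays of rats 5 and 6, on slide 2, lay within or just below the CFA range, and those of rats 1, 2 and 3, on slides 1 and 3, lay lower. Its spot was marked as well above background on 5 of the 6 CFA arrays and on 3 of the 5 contralateral ones. The log2 fold change was 1.37 (SE 0.51; 95% interval 0.24 to 2.50; limma p = 0.022, adjusted p = 0.42; exact permutation p = 0.011). Within slide 2 it was 0.21, and without the contralateral array of rat 1 or rat 2 it was 1.16 or 0.89 and did not pass. It also depended on how signals near background were handled, at 0.61 with a floor of 10 on the signal, 0.28 without background subtraction and 0.17 with normexp, none of which passed.

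The remaining lists had no gene past the threshold. Among 7 other receptor subunits the smallest p belonged to Grin2d, a further GRIN2 subunit, at 0.47 (SE 0.20; limma p = 0.035; exact permutation p = 0.048). Among 21 synaptic scaffolds and associated kinases it belonged to Camk2b, a calcium-dependent kinase subunit, at 0.28 (SE 0.10; limma p = 0.022; exact permutation p = 0.015). Got2, the mitochondrial aspartate aminotransferase that interconverts glutamate and oxoglutarate, led 18 transport and synthesis genes at 0.34 (SE 0.12; limma p = 0.016; exact permutation p = 0.019), below a 2-fold change. Among 3 RNA editing genes, Adarb2 had the smallest p, and no fold is given because its spot was marked as above background on only 1 CFA array and 1 contralateral array. The enzyme that edits the Gria2 transcript, encoded by Adarb1, was at -0.04 (SE 0.08) and is named here after its value was seen.

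**Figure D5:**
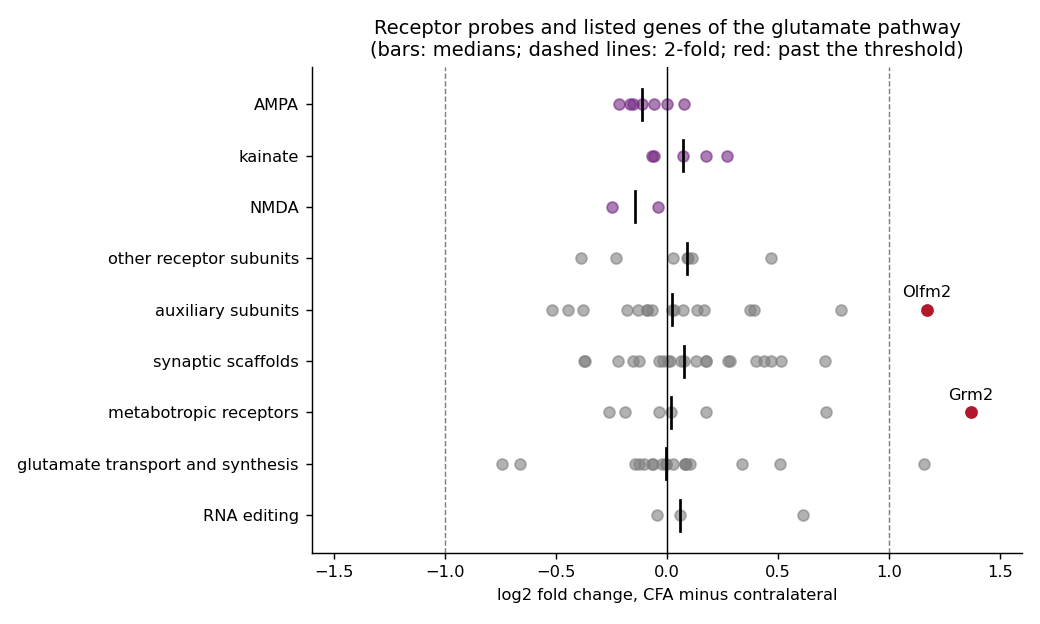
Log2 fold change (CFA minus contralateral) of the receptor probes by class (purple) and of the listed pathway genes (grey, red where past the threshold), with bars for list medians and dashed lines at a 2-fold difference. All receptor probes lie between -0.25 and 0.27, and Olfm2 and Grm2 are the genes in red.

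Marker genes show what else the samples held beside these values. Of 11 neuron markers 0 passed the threshold (median log2 fold change 0.08), and their summed log2 level was 20.21 to 20.37 in CFA ganglia and 20.28 to 20.35 in contralateral ganglia. Thy1 had the smallest p among them at 0.87 (SE 0.36; limma p = 0.034; exact permutation p = 0.056). Paired by rat, Thy1 was at 1.02 and passed, higher on the CFA side in 5 of 5 rats, and within slide 2 it was -0.35. The summed levels of the sides overlapped, but the sum adds linear signals and rests on the brightest genes. One of these, Nefl, ran from 17.67 to 17.84 over all arrays. Quantile normalisation gives every array the same distribution of signals, which limits how far a sum of the brightest genes can differ. Dimmer markers ran from 7.88 to 9.48 (Rbfox3), 11.45 to 12.68 (Elavl4), 9.12 to 11.48 (Thy1) and 5.86 to 6.52 (Syt1). Satellite glia markers had 0 of 7 past the threshold. Kcnj10, a potassium channel of these cells, had the smallest p among them, and no fold is given because its spot was not well above background on any of the 6 CFA arrays. Apoe, a lipid carrier that satellite glia express, was at 0.92 (SE 0.64) unpaired and passed when paired by rat, at 1.34 and higher on the CFA side in 5 of 5 rats, while within slide 2 it was -0.002; it is named after its values were seen.

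Among markers of central nervous system cells, glial ones such as Gfap varied widely among the ganglia of both sides. The summed log2 level of the list was 15.66, 14.56 and 15.97 in the CFA ganglia of rats 1, 2 and 3. It was 15.76 and 15.62 in the contralateral ganglia of rats 1 and 3. It was 12.12 to 12.64 on the other CFA arrays and 12.15 to 12.66 on the other contralateral ones. The sum adds linear signals, and Gfap alone was at 15.19 and 15.33 in the CFA ganglia of rats 1 and 3. Gad1 was at 10.13 and 10.26 in the CFA and contralateral ganglia of rat 1, but at 9.28 and 9.59 in those of rat 3. It was also at 10.25 in the CFA ganglion of rat 8, where the summed level was 12.64. Neurod6 ran only from 4.33 to 5.12 over all arrays. By the sum, rat 3 was high on both sides, as was rat 1. Grin2b was low in rat 3 and at 6.41 and 6.82 in the CFA and contralateral ganglia of rat 1. None of 11 such markers passed the threshold, and Neurod6 had the smallest p (-0.32, SE 0.14; limma p = 0.0496; exact permutation p = 0.065). Anterior pituitary markers ranged more widely, with summed log2 levels of 12.04 to 18.23 in CFA ganglia and 11.48 to 16.71 in contralateral ganglia, 0 of 8 past the threshold and Lhb lowest in p (0.80, SE 0.67).

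Macrophage, skeletal muscle and red blood cell markers had 0 of 8, 0 of 7 and 0 of 5 genes past the threshold. Csf1r led the macrophage list at -0.23 (SE 0.11; limma p = 0.065; exact permutation p = 0.058), Mb the muscle list at 0.56 (SE 0.22; limma p = 0.030; exact permutation p = 0.048), and Epb42 the red blood cell list at -0.55 (SE 0.48). The part of these other tissues in the receptor values was not tested.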

How the data were processed

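Trigeminal ganglia of 6 CFA and 5 contralateral sides were each hybridised to 1 array. The authors extracted intensities with Agilent Feature Extraction 11.0.1.1; the deposited processed signal is a linear intensity after background subtraction. A deposited table of quantile normalised intensity, whose 11 columns each matched their own array best (r 0.9993 to 0.9998), served as an alternative. Its column median was 184.67, so its scale was linear; further details were not given in the sources used here. Control spots (1417 of 43553) were left out, outlier spots (1.38%) were set to missing, the processed signal was quantile normalised on the log2 scale, and spots of a probe were averaged (24684 probes). Of 15321 probes with an mRNA accession, 14274 were named through RefSeq's table of assembly GRCr8, used for names only.

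CFA was compared with contralateral by limma 3.58.1 (R 4.3.3) without pairing, as the study's methods name none, with Benjamini-Hochberg adjustment over all probes. The threshold was an unadjusted p of 0.05 and a fold change of 2. Single probes were also tested by two-sided exact permutation over 462 splits. The script was tested on simulated data. Members, lists and tests were chosen with earlier results of these data known. Named were all members and, of each other list, genes past the threshold or else that with the smallest p, each read by its brightest probe. A marker list is not reported here. Rat numbers pair the ganglia, since the labels give the same rat. The deviations of a rat's 2 sides from their group means correlated between -0.08 and 0.13, above 0.1 in 1 of 5 rats. In 0 of the 5 rats did the CFA ganglion correlate best with the contralateral ganglion of the same rat. The pairing therefore rests on the labels. Alternatives were another scaling, background correction, filter, floor, trend, blocks and left-out arrays; the planned mean signal was replaced by the median signal, the column the files hold.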

Additional observations from a re-analysis of the deposited data

Results flagged for a closer look

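A value was singled out where the lowest or highest ganglion of a group lay apart from the rest by more than Dixon's 95% limit on the share of the group's range. For the receptor probes, 5 of 28 group comparisons were singled out, 2 of them from the 1 Grin2b probe in the ganglia of rat 3. Among the other named genes it was 1 of 28, and over all probes 7.62%. Those genes were picked for passing the threshold or for the smallest p, so their share is not an unselected comparison. Chance does so in about 1 of 20.

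Grin2b NM_012574 was lowest in rat 3 in both groups, at 4.23 in the CFA ganglion, with the other CFA ganglia at 6.36 to 6.87, and at 4.57 in the contralateral ganglion, with the other contralateral ganglia at 6.30 to 6.82. The gap made up 0.81 of the range among CFA ganglia and 0.77 among contralateral ganglia.

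Gria2 NM_017261 was low in the CFA ganglion of rat 3 at 6.34 (others 6.98 to 7.21). Grik2 NM_019309 was low in the CFA ganglion of rat 1 at 8.14 (others 8.65 to 8.91). Gria4 NM_001113185 was low in the contralateral ganglion of rat 6 at 10.88 (others 11.14 to 11.21). Among the named genes of the other lists, Kcnj10 was high in the contralateral ganglion of rat 3 at 3.33 (others 2.70 to 2.84), from a spot marked as above background on 0 CFA arrays and 2 contralateral ones, so that most of these values have no firm order.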

How the results depend on the processing

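The count of receptor probes past the threshold was 0 under all 25 alternatives and under both other thresholds, and none of the 350 probe values under these alternatives reached an unadjusted p of 0.05 (lowest 0.067, Grin1 without the CFA array of rat 1). Signs were less stable: 37 of the 350 values changed sign, 11 of them on leaving out 1 array. The cause was not tested. Below, only the probes whose sign changed are listed for each setting, and the other probes kept their sign.

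With slide as a block, which rests on slide 2 alone, the log2 fold change was 0.0230 for Gria2 NM_001083811, 0.135 for Gria2 NM_017261, 0.0926 for Gria3 NM_032990, 0.212 for Gria4 NM_001113185, 0.0698 for Gria4 NM_017263, -0.0817 for Grik1 NM_001111114, -0.405 for Grik2 and 0.498 for Grin1. Blocking on scan day rests on the CFA array of rat 1 against the contralateral arrays. It gave 0.0204 for Gria2 NM_017261, 0.118 for Gria4 NM_001113185, -0.292 for Grik2, 0.284 for Grin1 and 0.213 for Grin2b. With slide as a random effect it was 0.0406 for Gria2 NM_017261, 0.00260 for Gria4 NM_001113185 and 0.0207 for Grin2b. Gria2 NM_017261 was at 0.0310 when scaled to the 75th percentile and at 0.00432 in the deposited values. Without background subtraction, and with normexp (offset 50), Gria3 NM_001112742 was at -0.143 and -0.136, and Grik1 NM_017241 at 0.0316 and 0.0314. Without both arrays of rat 3, chosen after seeing the data, Gria2 NM_017261 was at 0.0261, Gria4 NM_001113185 at 0.0158, Grik2 at -0.100 and Grik5 at -0.00122. Leaving out 1 array gave -0.0991 to 0.123 for Gria2 NM_017261, -0.0691 to 0.456 for Grik2, -0.0508 to 0.165 for Grik5 and -0.447 to 0.346 for Grin2b.

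The count over all probes, 498, was 47 without background subtraction, 16 with normexp, 191 with a floor of 10, 288 with dim probes left out and 233 with slide as a random effect. It was 330 to 796 on leaving out 1 array, lowest without the contralateral array of rat 1 and highest without that of rat 6 (771 without that of rat 5). It was 0 at an adjusted p of 0.05 and 2659 at an unadjusted p of 0.05 with no fold limit. The 2 listed pathway genes past the threshold became 0 without background subtraction, with normexp and at an adjusted p of 0.05, 1 with the floor, with dim probes left out or a block on scan day, and 8 with no fold limit; leaving out 1 array gave 0 to 4. In the paired analysis, with rat as a replicate block, 0 receptor probes, 370 of all probes and 2 pathway genes passed, and no receptor call changed. Among the marker genes reported, Thy1 and Apoe passed in the paired fit and not in the unpaired one.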
